A study of Homo sapiens with 9 samples.

Results

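The members described here are stretches of the human autosomes. Chromosomes 1 to 22 of GRCh38 were cut into bins of 5 Mb from position 0, every gene of the deposited count table was placed in the bin that holds its start, and a bin was kept where at least 5 of its genes had at least 10 counts in every library. Of 587 autosomal bins, 527 were kept, 36 held 1 to 4 such genes and 24 held none. The kept bins carried 13860 genes that passed the count minimum, between 5 and 139 per bin with a median of 20. Poly(A)-selected mRNA was sequenced from 3 untreated lines of Huh-7, a human hepatocellular carcinoma line, with 3 libraries per line: the unedited line (WT), a line without the vtRNA1-1 gene (1-1 KO) and a line without the vtRNA1-2 gene (1-2 KO). All were grown in the same serum-containing medium. The vtRNA1-2 gene was cut out with paired CRISPR/Cas9 guides and a single clone was taken. WT and 1-1 KO were received from another laboratory, and each knockout is represented by 1 line. The effect of a missing gene and the history of a line therefore cannot be told apart, and neither can a shift of both knockouts from a difference in WT. The labels name replicates but not separate cultures, so the p-values measure the spread between libraries of 1 line.

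Neighbouring genes of a chromosome are often expressed together because they share chromatin, regulatory elements and the number of copies of the DNA they lie on. Hepatoma lines such as Huh-7 carry many gains and losses of chromosome parts, and sublines of 1 tumour line are known to differ in them. A bin median reads what most genes of a stretch do and gives no extra weight to an abundant gene, whereas the sum of the counts of a bin follows its most abundant genes. Only RNA was measured in these samples.

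The deleted genes are themselves members of a bin. VTRNA1-1 (ENSG00000199990, chr5:140711275-140711373) and VTRNA1-2 (ENSG00000202111, chr5:140718925-140719013) lie on the plus strand of GRCh38 in the bin from 140 to 145 Mb of chromosome 5. Their sequences are shown because they are what separates the 3 lines by design, with capitals for bases that are not paired with an identical base of the other gene in a global alignment, in which 81 bases were identical.
VTRNA1-1: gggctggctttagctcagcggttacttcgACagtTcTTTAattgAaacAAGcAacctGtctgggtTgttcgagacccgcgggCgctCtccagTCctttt
VTRNA1-2: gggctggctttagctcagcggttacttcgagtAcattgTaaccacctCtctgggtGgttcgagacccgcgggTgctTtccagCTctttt
Vault RNAs are made by RNA polymerase III and carry no poly(A) tail. In the count table VTRNA1-1 had 1 count in 1 WT library and 0 in the other 8, and VTRNA1-2 had 0 counts in every library, so these libraries do not check the deletions.

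Library totals lay between 32384469 and 41782387 counts. All 11 markers of hepatocytes and fetal liver passed the count minimum, with summed levels of 10638 to 11059 CPM (counts relative to a library total) in WT, 26349.6 to 27061 CPM in 1-1 KO and 17363 to 19028 CPM in 1-2 KO. The sums do not speak for each marker. In 1-1 KO 9 of the 11 were higher and 1 lower, with a median log2 ratio of 0.39 (adjusted p under 0.05, edgeR). In 1-2 KO 5 were higher and 3 lower, with a median of 0.063. Of all autosomal genes that passed the count minimum, 32.8% rose and 34.2% fell in 1-1 KO, and 27.5% and 29.7% in 1-2 KO. Of 9 markers of other cells, 4 passed, and the sum over all 9 of 868 to 892 CPM in WT, 488 to 493 CPM in 1-1 KO and 655 to 666 CPM in 1-2 KO was mostly VIM (vimentin), which hepatoma lines also express. CD3E, VWF and KRT5, which define T cells, endothelium and squamous epithelium, had at most 6 counts in any library. PECAM1, another endothelial marker of the list, reached 315 counts and stood at 7.57 CPM in WT, 6.67 CPM in 1-1 KO and 0.839 CPM in 1-2 KO, where it fell by 3.17 on the log2 scale (adjusted p = 5.05e-11, edgeR), and PTPRC, the leukocyte antigen CD45, reached 47 counts and rose by 1.73 in 1-1 KO and by 2.65 in 1-2 KO on the log2 scale (adjusted p = 0.000332 and 2.66e-06). Of the other listed markers, CDX2, of intestine, stood at 2.02 CPM in WT, 19.4 CPM in 1-1 KO and 17.6 CPM in 1-2 KO. ACTA2, of smooth muscle, stood at 2.78, 0.0807 and 6.26 CPM, and COL1A1, of fibroblasts, at 11.4, 10.5 and 13.3 CPM. In 1-2 KO each of them was above WT (adjusted p at most 0.00917, edgeR), unlike the sum. For 1-1 KO the test called CDX2 higher and ACTA2 lower, and COL1A1 did not pass (adjusted p = 0.132, edgeR). The part of these marker levels in the regional values was not tested. The first 1-2 KO library stood apart from the others of its line. The chi-square of gene counts per degree of freedom was 15.1 and 16.1 against them and 2.67 between those 2, and results that leaving it out changed are named below.

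The first comparison asks where along the genome 1-1 KO differed from WT. Bins on all 22 autosomes were higher or lower, with whole stretches of neighbouring genes moving one way. The value of a bin is the median over its genes of the log2 ratio of the knockout to WT, taken as the difference between the means of log2 CPM over 3 libraries, and a bin was called where limma gave an adjusted p under 0.05 and the value was at least 0.2 in size. By these criteria 113 of 527 bins were higher (21.4% of the bins tested) and 122 were lower (23.1%). By the adjusted p alone 78.2% of the bins passed. The SD of a bin between the 1-1 KO libraries had a median of 0.029. The balance of the calls depended on the scaling: with the median over all bins set to 0 they were 26.2% higher and 17.6% lower, and with scaling by library totals alone 27.1% and 17.1%. Bin values ranged from -0.72 to 1.10 with an SD over bins of 0.28 and a median of -0.042. Called bins were not confined to chromosomes 5, 6 and 7: of the 430 bins elsewhere 189 were called (44%), and of the 97 bins on those 3 chromosomes 46 (47.4%). Chromosomes 2 and 4 held the most higher bins, 17 each, and chromosome 1 the most lower bins, also 17. Chromosome 16 had 1 called bin of 15 and chromosome 17 had 3 of 17, all of them at the end of its long arm.

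The same question was asked of 1-2 KO. Here decreases far outnumbered increases, with 36 bins higher (6.83%) and 106 lower (20.1%), and 61.9% of bins passed by the adjusted p alone. Bin values ranged from -0.91 to 0.66 with an SD over bins of 0.20, and the SD between libraries had a median of 0.043. Called bins lay on 20 chromosomes, none on 15 or 22. Chromosomes 1 and 6 held 25 lower bins each, chromosome 10 held 17 and chromosome 5 held 13. Outside chromosomes 5, 6 and 7, 92 of 430 bins were called (21.4%), against 50 of 97 (51.5%) on those 3. How many bins count as higher depended on the summary, since 6.83% became 20.9% when the mean over genes replaced the median and 14.6% when libraries were scaled by their totals alone, with 13.9% lower. Compared directly, 120 bins were higher in 1-2 KO than in 1-1 KO (22.8%) and 135 lower (25.6%), and 77.6% passed by the adjusted p alone. Outside chromosomes 5, 6 and 7, 196 of 430 bins were called in the direct comparison (45.6%), against 59 of 97 (60.8%) on those 3. Both comparisons with WT use the same WT libraries. Of the bins called lower in both, 26 were not called in the direct comparison, 6 were higher in 1-2 KO and 2 were lower in it. A further 7 bins were lower in 1-1 KO and higher in 1-2 KO, 5 were the reverse, and all 12 differed in the direct comparison. That they differed was largely given by the selection. Bins called with opposite signs lie at least 0.2 to either side of the same WT libraries.

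**Figure D1:**
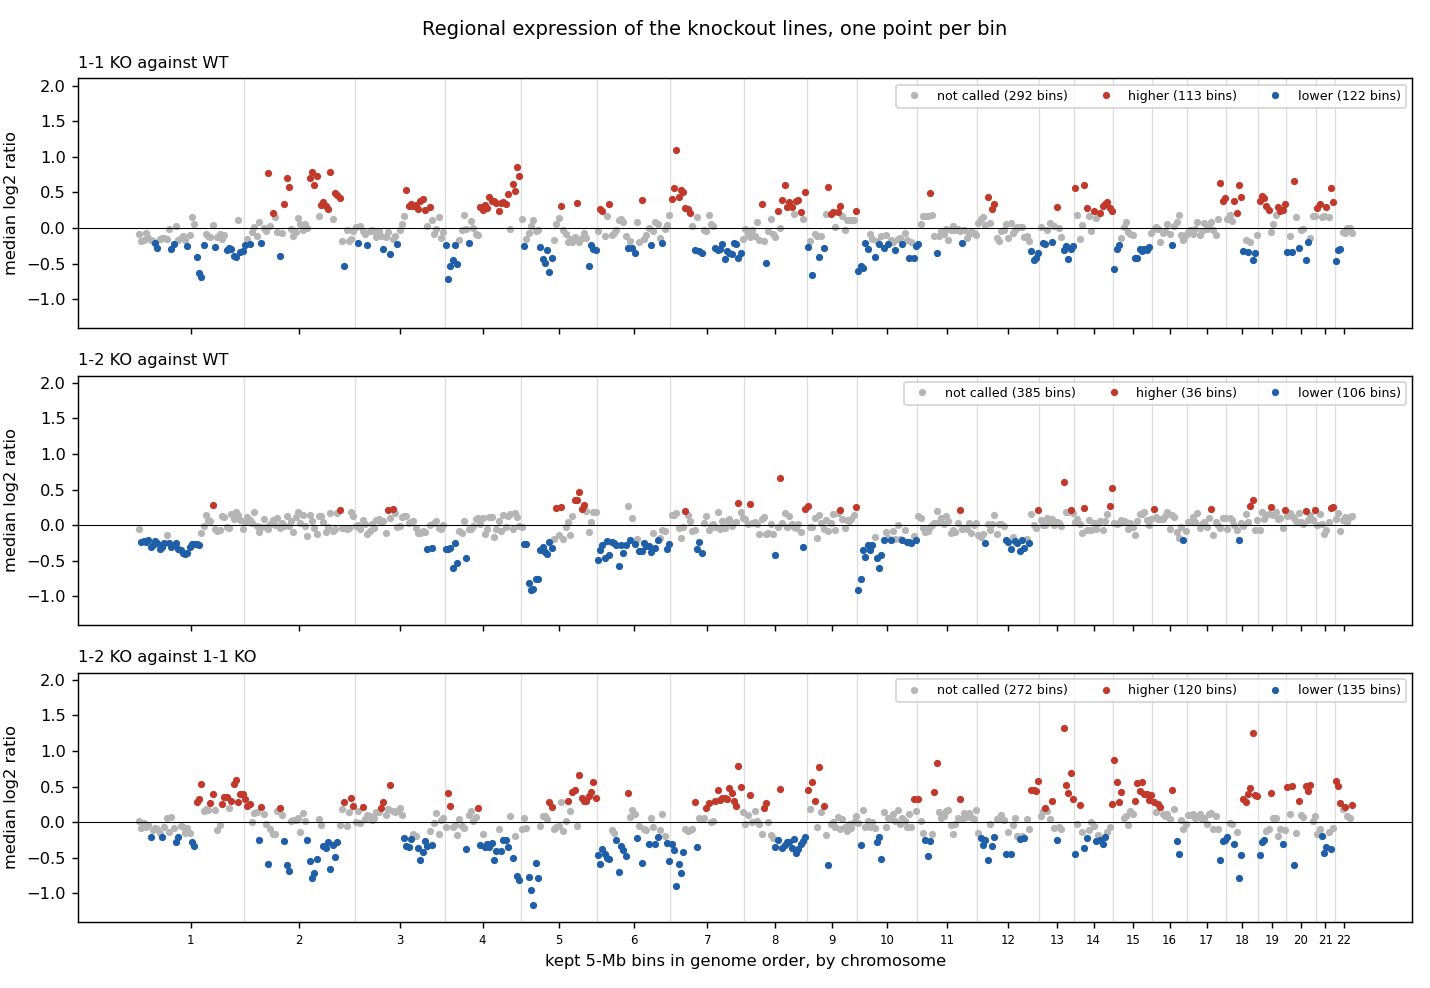
Median log2 ratio of each kept 5-Mb bin (vertical axis) in genome order with chromosomes 1 to 22 side by side (horizontal axis), for 1-1 KO against WT, 1-2 KO against WT and 1-2 KO against 1-1 KO. Called bins are red or blue and form stretches of 1 colour, red on chromosomes 2 and 4 in 1-1 KO and blue on chromosomes 1, 6 and 10 in 1-2 KO.

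Read over chromosome arms, the short and the long arm of chromosomes 4, 7, 9 and 12 moved in opposite directions in 1-1 KO, while both arms of chromosomes 1, 10 and 19 moved the same way. An arm was called at an adjusted p under 0.05 in limma and a median of at least 0.1 in size, and 12 of 39 arms were higher (30.8% of arms) and 12 lower (30.8%). The highest was 19p, with 428 genes, where the 1-1 KO libraries stood at 0.38, 0.36 and 0.36 against -0.039, -0.046 and 0.074 in WT, a value of 0.36 (SE 0.0311, adjusted p = 2.41e-08). The lowest was 10p, with 129 genes, at -0.36, -0.36 and -0.31 in 1-1 KO and -0.0079, 0.023 and -0.021 in WT (-0.37, SE 0.0185, adjusted p = 2.63e-10). In both arms every 1-1 KO library lay beyond every WT library. On chromosome 7 the short arm was higher by 0.35 and the long arm was at -0.25. Chromosome 4 was the mirror image, with -0.23 on the short arm and 0.29 on the long arm. Chromosome 9 had -0.23 and 0.16, and chromosome 12 had 0.14 and -0.16. Of the other arms, 8q (0.33), 21q (0.32), 14q (0.26), 19q (0.23), 3q (0.20), 2q (0.19) and 18p (0.13) were higher. Lower arms were 1q (-0.34), 15q (-0.22), 10q (-0.20), 5q (-0.17), 1p (-0.15), 22q (-0.12) and 20p (-0.11). The share of genes below 0 was 14% on 19p, 15.4% on 21q and 22.2% on 7p, against 82.2% on 10p and 75.3% on 1q, so most genes of these arms lay on the side of the median. The calls of 22q and 20p rested on the centring, since with the median over all bins set to 0 they stood at -0.080 and -0.071, and the mean over genes ended the calls of 1p, 12q and 22q (-0.099, -0.095 and -0.090). On 20p the mean over genes was -0.0020 (adjusted p = 0.947, limma), and the median without the third WT library was -0.090, also under the limit.

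In 1-2 KO, 5 arms were higher (12.8%) and 8 lower (20.5%). The lowest was 5p, with 125 genes, at -0.48, -0.46 and -0.49 in 1-2 KO and -0.0032, 0.012 and -0.013 in WT (-0.48, SE 0.0142, adjusted p = 5.51e-13, limma). Both arms of chromosome 6 followed, 6p at -0.33 and 6q at -0.23, and both arms of chromosome 10, 10p at -0.40 and 10q at -0.21. Also lower were 4p (-0.26), 1p (-0.26) and 12p (-0.13). Scaling by totals alone made the arms 25.6% higher and 17.9% lower. The higher arms were nearer to 0. They were 16p (0.18), 19q (0.12), 20p (0.12), 9q (0.12) and 20q (0.11). None of these 5 stayed called after a linear correction for the GC content and length of the genes, where they stood at 0.038, 0.015, 0.099, 0.053 and 0.037. Without the first 1-2 KO library 19q stood at 0.096 and 20q at 0.096, just under the limit, and 20q also missed it without the second (0.097) or the third (0.097). The call of 12p was lost with the mean over genes (-0.075) and with scaling by totals alone (-0.071).

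Arms on which both knockouts were lower than WT did not differ between them beyond the limit. The direct value of 1-2 KO against 1-1 KO was -0.0073 on 4p (adjusted p = 0.744), -0.020 on 10p (adjusted p = 0.228), 0.0025 on 10q (adjusted p = 0.804) and -0.098 on 1p (adjusted p = 1.23e-07, limma). With SEs of 0.0226, 0.0234 and 0.0107 on the first 3 arms these differences were within about 1 SE of 0, and on 1p the difference had a small adjusted p and a size just under the limit. Single bins of these arms did differ. In the direct comparison 2 of 9 bins of 4p were higher, and 1 of 8 bins of 10p was lower. On 10q 1 of 18 bins was higher and 3 were lower, and on 1p 6 of 25 were lower. Direct bin values ran from -0.17 to 0.41 on 4p, -0.32 to 0.16 on 10p and -0.52 to 0.32 on 10q. On 12p the lines went opposite ways. The 1-1 KO libraries were at 0.12, 0.16 and 0.13, the 1-2 KO libraries at -0.14, -0.14 and -0.098 and WT at 0.0052, 0.011 and -0.020, and the direct difference was -0.21 (SE 0.0133, adjusted p = 1.43e-08). The short arm of chromosome 20 was lower in 1-1 KO and higher in 1-2 KO, with a direct difference of 0.27 (adjusted p = 7.73e-07, limma). It was mixed in 1-1 KO, where 56.5% of genes lay below 0. Of its bins 1 was higher and 3 were lower, with values from -0.34 to 0.66. Its direct bin values ran from -0.61 to 0.51. Calls of opposite sign against the same WT libraries largely build in a direct difference, so the direct values of 12p and 20p are a description. In all, 11 arms were higher in 1-2 KO than in 1-1 KO (28.2%) and 12 lower (30.8%), from -0.60 on 5p to 0.34 on 1q. On 10 arms neither knockout was called against WT: 2p, 3p, 8p, 11p, 11q, 13q, 16q, 17p, 17q and 18q. Several of these held called bins of both signs, among them 18q with 4 bins higher and 4 lower in 1-1 KO, so an arm near 0 was not always a flat one.

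**Figure D2:**
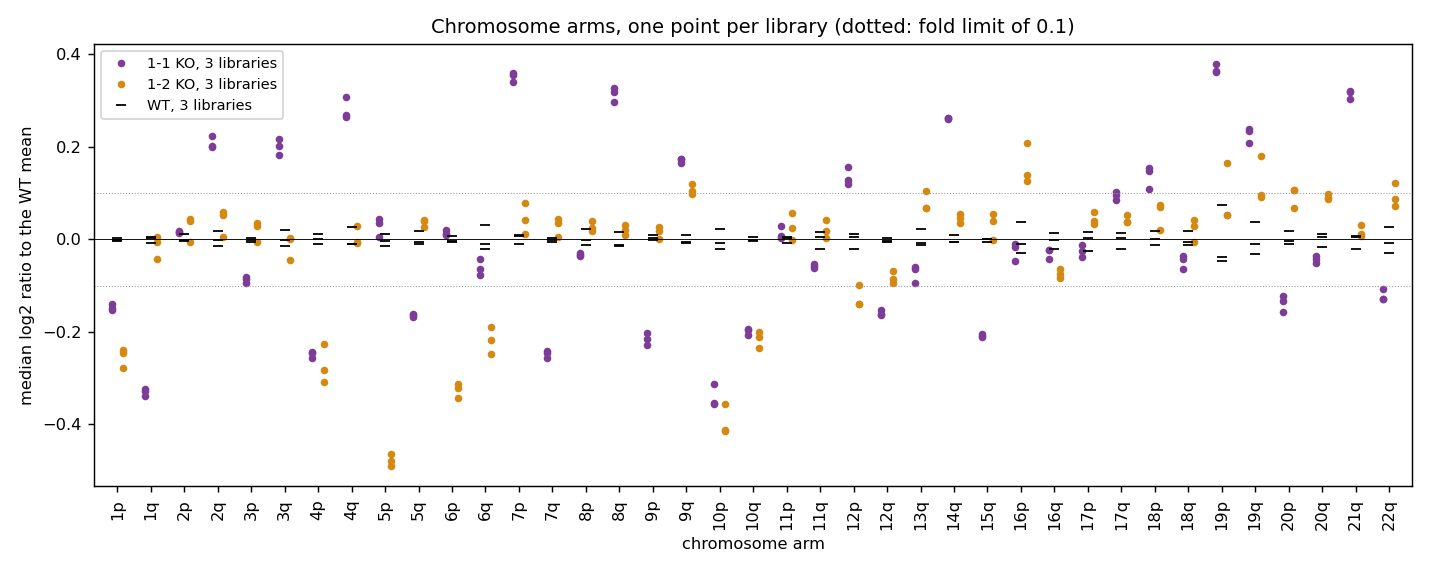
Median log2 ratio to the WT mean over the genes of each chromosome arm (vertical axis) for 39 arms (horizontal axis), 1 point for each of 3 libraries per line, with the limit of 0.1 dotted. The 3 libraries of a line lie close together, and 10p is low in both knockouts whereas 5p is low in 1-2 KO and 19p high in 1-1 KO.

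Called bins lay side by side. Runs of at least 3 consecutive kept bins called with 1 sign numbered 28 in 1-1 KO, 16 higher with 83 bins and 2336 genes on 10 chromosomes, and 12 lower with 64 bins and 1709 genes on 9. The runs were formed from the calls, so their values are a description. The run with the highest median lay on the distal long arm of chromosome 4 from 165 to 190 Mb, where the 1-1 KO libraries stood at 0.68, 0.75 and 0.74, WT at 0.0019, 0.023 and -0.024 and 1-2 KO at 0.00060, 0.085 and 0.047. Its 55 genes had a median of 0.73, 89.1% were above 0 and 45 rose, where 32.8% of all autosomal genes that passed the count minimum rose and 34.2% fell (adjusted p under 0.05, edgeR). Among its most abundant genes HMGB2, a chromatin protein of dividing cells, rose from 166 ± 3.05 CPM to 294 ± 5.59 CPM (mean ± SD, n = 3 libraries per line), and MSMO1, a sterol synthesis enzyme, from 131 ± 3.86 CPM to 225 ± 3.7 CPM. PALLD, an actin-associated protein, went against the run and fell from 224 ± 3.3 CPM to 176 ± 2.22 CPM. The stretch before it, from 85 to 160 Mb, was a run of 13 bins at 0.36. It holds the fibrinogen genes, whose protein is the clotting substrate made by liver: FGB rose from 2646 ± 85.6 CPM to 3455 ± 22.4 CPM, FGA from 1109 ± 10.3 CPM to 1615 ± 9.35 CPM and FGG from 1017 ± 44.8 CPM to 1401 ± 20.6 CPM. Against a run median of 0.36 they had log2 fold changes of 0.39, 0.54 and 0.46 (adjusted p at most 2.50e-06, edgeR's quasi-likelihood test).

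Chromosome 2 held 4 separate higher runs, from 85 to 105, 145 to 165, 170 to 195 and 200 to 215 Mb, with medians of 0.55, 0.68, 0.36 and 0.47. From 145 to 165 Mb the 1-1 KO libraries stood at 0.67, 0.69 and 0.68, WT at -0.013, 0.045 and -0.025 and 1-2 KO at -0.0046, -0.034 and 0.063, and 93.2% of 59 genes were above 0. There DPP4, a cell-surface peptidase, rose from 287 ± 8.51 CPM to 535 ± 7.48 CPM, MMADHC, which traffics cobalamin, from 244 ± 7 CPM to 335 ± 1.66 CPM, and LYPD6B had the largest rise, from 3.01 ± 0.196 CPM to 34.4 ± 0.642 CPM. From 170 to 195 Mb the collagen gene COL5A2 rose from 611 ± 34.4 CPM to 1551 ± 22.1 CPM, while the integrin gene ITGAV fell from 1000.1 ± 36.7 CPM to 883 ± 17.6 CPM and HNRNPA3, an RNA-binding protein, did not pass the test (log2 fold change -0.050). From 200 to 215 Mb MAP2, a neuronal microtubule protein, fell from 65.8 ± 1.77 CPM to 2.81 ± 0.122 CPM against its run. FABP1, a fatty acid carrier of hepatocytes, had the largest rise of the first run, from 32.8 ± 0.336 CPM to 102 ± 6.27 CPM.

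The gene-rich short arm of chromosome 19 formed a run over its full length, with 86% of 428 genes above 0 and 279 that rose. Its 3 most abundant genes stood below its median of 0.36: EEF2, the translation elongation factor, stood at log2 0.099 and CALR, a chaperone of the endoplasmic reticulum, at -0.091, and TPM4, a tropomyosin, fell by 0.51 on the log2 scale. CNN1, a smooth-muscle calponin, fell from 28.4 ± 0.414 CPM to 3.11 ± 0.124 CPM. The short arm of chromosome 7 from 0 to 45 Mb (0.40, 215 genes) held ACTB, cytoplasmic actin, at log2 -0.068 and the transcription factor gene ETV1 up from 8.91 ± 0.576 CPM to 45.3 ± 1.11 CPM. Further higher runs lay on 3q from 115 to 160 Mb (0.32, 223 genes), where TF, the iron carrier transferrin, rose from 1527 ± 41.3 CPM to 2279 ± 26.7 CPM and AADAC, a liver esterase, from 2.14 ± 0.357 CPM to 30.2 ± 1.23 CPM, on 17q from 70 Mb to the end (0.41, 163 genes) and on 18q from 20 to 40 Mb (0.40, 60 genes), where TTR, the thyroxine carrier transthyretin, rose from 111 ± 2.35 CPM to 336 ± 27.2 CPM. On 8q the runs from 80 to 105 Mb (0.36) and 115 to 130 Mb (0.38) held CDH17, a cadherin of intestine, and COL14A1, a collagen, which rose by 3.29 and 5.07 on the log2 scale. On 9q from 70 to 85 Mb (0.29, 36 genes) ANXA1, an annexin, rose from 27.2 ± 0.866 CPM to 109 ± 4.84 CPM and ALDH1A1, a retinal dehydrogenase, from 819 ± 12.9 CPM to 1386 ± 20.5 CPM. The run on 14q from 75 Mb to the end (0.29, 148 genes) held SERPINA1, the protease inhibitor alpha-1 antitrypsin, which rose from 841 ± 13.4 CPM to 1091 ± 26.4 CPM.

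Among the lower runs of 1-1 KO, the proximal long arm of chromosome 1 from 145 to 165 Mb stood out, at -0.52, -0.52 and -0.50 in the 1-1 KO libraries, 0.0088, -0.0086 and -0.0029 in WT and -0.22, -0.17 and -0.13 in 1-2 KO. Of its 251 genes 176 fell and 21 rose. NES, the intermediate filament nestin, fell from 1929.8 ± 141 CPM to 501 ± 17 CPM, HDGF, a hepatoma-derived growth factor, from 1129 ± 23.4 CPM to 616 ± 1.9 CPM, and S100A9, a calcium-binding protein, from 67.2 ± 3.19 CPM to 11 ± 1.13 CPM. APOA2, an apolipoprotein of liver, rose from 771 ± 15.6 CPM to 913 ± 48.3 CPM in the last bin of the run. A second run on 1q, from 210 to 235 Mb (-0.34, 131 genes), held AGT, the angiotensin precursor, which fell from 587 ± 12.7 CPM to 278 ± 15.2 CPM, and PARP1, a DNA repair enzyme, which fell from 407 ± 4.09 CPM to 308 ± 6.22 CPM. On the distal long arm of chromosome 12, from 115 Mb to the end, 90.8% of 130 genes were below 0, with a median of -0.41. RPLP0, a ribosomal stalk protein, fell there from 1816 ± 13.6 CPM to 1052 ± 13.5 CPM and RAN, the GTPase of nuclear transport, from 714 ± 11.8 CPM to 473 ± 8.55 CPM. On 15q from 65 to 100 Mb (-0.33, 208 genes) RPL4, RPLP1 and PKM, which are 2 ribosomal proteins and pyruvate kinase, fell by 0.77, 0.75 and 0.81 on the log2 scale. On 15q from 20 to 35 Mb (-0.42, 48 genes) UBE3A, a ubiquitin ligase, fell from 357 ± 5.31 CPM to 209 ± 1.21 CPM. The runs at the start of 22q (-0.36, 130 genes) and the end of 13q (-0.30, 65 genes) were also lower, and in the latter IPO5, an importin, fell from 555 ± 13.5 CPM to 353 ± 1.36 CPM. On chromosome 7 from 95 to 155 Mb (-0.32, 330 genes) AKR1B10, an aldo-keto reductase, fell from 29.4 ± 0.879 CPM to 1.94 ± 0.312 CPM and AKR1D1, a bile acid synthesis enzyme of the same family, rose from 3.82 ± 0.44 CPM to 15.2 ± 0.236 CPM. On 5q from 60 to 90 Mb (-0.40, 126 genes) RPS23, a ribosomal protein, fell from 1100.2 ± 14.6 CPM to 576 ± 21.3 CPM, and BHMT2, a methyltransferase of liver, from 109 ± 1.2 CPM to 38.4 ± 1.17 CPM. NPM1, nucleophosmin, fell from 2951 ± 74.2 CPM to 1701 ± 51.7 CPM at the end of 5q.

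In 1-2 KO the runs numbered 13, of which 12 were lower, with 88 bins and 2210 genes on 7 chromosomes. Chromosome 1 was lower over nearly its whole short arm and across the centromere, in runs from 5 to 60 Mb (-0.26, 485 genes) and from 65 to 155 Mb (-0.31, 394 genes). In the first the 1-2 KO libraries stood at -0.29, -0.25 and -0.24, WT at 0.0066, -0.012 and 0.00051 and 1-1 KO at -0.18, -0.16 and -0.17. ENO1, an enolase of glycolysis, fell from 2692 ± 85.3 CPM to 1958 ± 131 CPM and PRDX1, a peroxiredoxin, from 1562 ± 46.3 CPM to 961 ± 66.3 CPM, and in the second S100A6, a calcium-binding protein, fell from 121 ± 4.44 CPM to 23.1 ± 1.2 CPM. On chromosome 12 the runs lay from 60 to 75 Mb (-0.26) and 80 to 105 Mb (-0.28) and held LYZ, lysozyme, which fell from 113 ± 0.33 CPM to 19.2 ± 0.384 CPM, and TXNRD1, a thioredoxin reductase, which fell from 1282 ± 14.3 CPM to 782 ± 34.1 CPM. In these runs 1-1 KO stood at -0.068 and -0.019. On chromosome 10 the runs from 0 to 35, 40 to 60 and 110 to 125 Mb had medians of -0.40, -0.48 and -0.24. NCOA4, the receptor for ferritin turnover, fell from 512 ± 15 CPM to 279 ± 22.1 CPM in the second, and CTBP2, a transcriptional corepressor gene, had the largest change against the third, from 0.702 ± 0.0884 CPM to 29 ± 1.78 CPM. On chromosome 5 the run from 5 to 90 Mb (-0.45, 251 genes) held OSMR, the oncostatin M receptor, which fell from 66 ± 1.11 CPM to 9.78 ± 0.717 CPM, and RPL37, a ribosomal protein, which fell from 1288 ± 29.3 CPM to 637 ± 53.8 CPM. The run from 135 to 160 Mb of the same chromosome, at 0.34 with 155 genes, was the single higher run of 1-2 KO, and SPINK1, a trypsin inhibitor, fell from 208 ± 15.3 CPM to 65.4 ± 0.266 CPM within it. On chromosome 6 from 0 to 65 Mb (-0.33, 415 genes) the linker histone gene H1-2 fell from 54.6 ± 1.07 CPM to 6.05 ± 0.262 CPM, HLA-C, a class I antigen-presenting gene, rose from 3.41 ± 0.719 CPM to 12.5 ± 1.98 CPM, and from 95 to 125 Mb (-0.29) GJA1, a connexin, fell from 713 ± 14.8 CPM to 157 ± 8.68 CPM. On chromosome 7 from 55 to 70 Mb (-0.32, 52 genes) ASL, the urea cycle enzyme argininosuccinate lyase, fell from 79.7 ± 3.92 CPM to 44.9 ± 1.28 CPM and AUTS2, a chromatin regulator, rose from 7.34 ± 0.42 CPM to 21.1 ± 1.42 CPM.

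The ends of 4p and 10p were among the stretches low in both knockouts. Single bins within them differed between the knockouts. At 5 to 10 Mb the direct value was 0.41 on 4p and -0.32 on 10p (adjusted p = 9.03e-08 and 1.16e-05, limma). On 4p the first 6 bins, up to 30 Mb and with 117 genes, formed a run in each: 1-1 KO stood at -0.36, -0.38 and -0.39, 1-2 KO at -0.37, -0.39 and -0.42 and WT at -0.014, -0.019 and 0.024, and the median direct ratio was 0.0089. WDR1, which disassembles actin filaments, stood at 1139.9 CPM in WT, 393 CPM in 1-1 KO and 714 CPM in 1-2 KO. S100P, a calcium-binding protein, stood at 119, 20.5 and 27.2 CPM, and SLIT2, a guidance ligand, at 9.83, 31.8 and 28.2 CPM. These genes, 2 low and 1 high in the knockouts, had adjusted p of at most 8.55e-10 against WT in edgeR. On 10p the first 5 bins, with 87 genes, were at -0.51, -0.47 and -0.49 in 1-1 KO, -0.45 as the median of 1-2 KO and -0.0079, 0.020 and -0.020 in WT, with a median direct ratio of 0.011. They hold the AKR1C aldo-keto reductases of steroid metabolism, near-identical paralogs whose counts are uncertain, and VIM, which fell from 852 ± 13.7 CPM to 453 ± 2.14 CPM in 1-1 KO and to 622 CPM in 1-2 KO. Several runs named above for 1 knockout, though not all, were also low in the other. On 5q from 60 to 90 Mb 1-1 KO stood at -0.40 and 1-2 KO at -0.35. On chromosome 7 from 55 to 70 Mb they stood at -0.30 and -0.32, and on 10q from 110 to 125 Mb both at -0.24. On chromosome 1 from 65 to 155 Mb they stood at -0.25 and -0.31. The median direct ratios were 0.085, -0.025, -0.061 and -0.032. A shift of both knockouts cannot be told from a difference in WT.

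**Figure D3:**
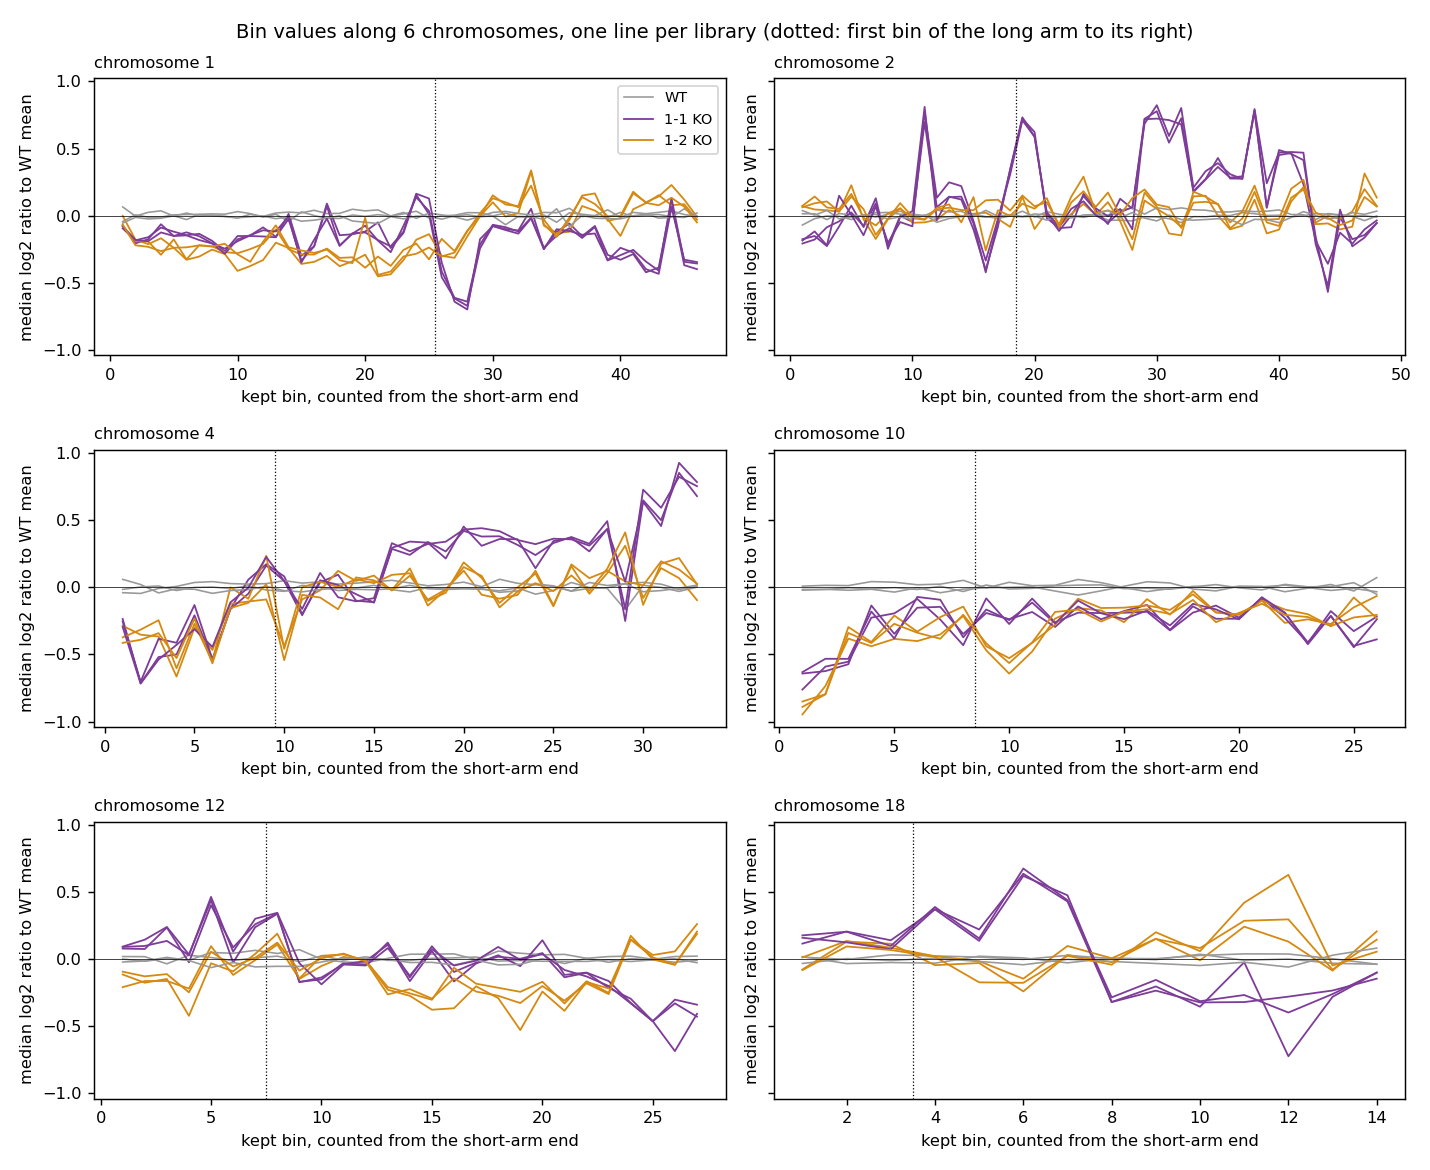
Median log2 ratio to the WT mean (vertical axis) of the kept bins of chromosomes 1, 2, 4, 10, 12 and 18 in order from the short-arm end (horizontal axis), 1 line for each library, with the first long-arm bin to the right of the dotted line. The WT libraries stay near 0, the 1-1 KO lines step up and down on chromosomes 2, 4 and 18, and both knockouts are low at the start of chromosomes 4 and 10.

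Where the shifts began and ended was read from 417 borders between neighbouring bins, each with at least 3 kept bins and 15 genes on both sides. The step is the median over the genes of up to 4 bins after a border minus that of up to 4 before it. It was called at an adjusted p under 0.05 in limma and a size of at least 0.3, and of called borders within 3 of each other with 1 sign the largest was kept as a boundary. The windows of neighbouring borders overlap. In 1-1 KO 35 borders stepped up (8.39%) and 33 down (7.91%), which made 28 boundaries on 18 chromosomes, 22 of them on 15 chromosomes other than 5, 6 and 7. Of the 527 kept bins, 430 lie outside chromosomes 5, 6 and 7. Of the 28 boundaries, 2 spanned a centromere, on chromosomes 1 and 9, and 26 lay within an arm.

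The largest step lay on the long arm of chromosome 18, where the 1-1 KO libraries dropped from one side to the other by steps of -0.68, -0.66 and -0.66 and WT and 1-2 KO had steps of 0.018, -0.0076 and -0.018 and 0.067, 0.099 and 0.078. The median was 0.40 before and -0.28 after (-0.67, SE 0.0207, adjusted p = 1.15e-13, limma). The split of single genes that left the least deviation on both sides fell between MIR924HG, which starts at 39206917 of chromosome 18, and RPL7AP66, which starts at 39334872. Because the arm joins a high part to a low part, 18q as a whole stood at -0.045. Chromosome 2 had 5 boundaries. The values rose from 0.019 to 0.68, with the split between TEX41, which starts at 144666312, and ACVR2A, which starts at 147844517, with steps of 0.64, 0.67 and 0.68 in the 1-1 KO libraries and 0.0027, 0.036 and -0.029 in WT. They fell back from 0.41 to -0.18 between ERBB4 (start 211375717) and IKZF2 (start 212999691). Around the centromere the same chromosome rose between LSM3P3 (85102389) and TCF7L1 (85133392) by 0.47 and fell between TMEM182 (102736905) and MRPS9 (105038069), a step of -0.53. In 1-2 KO the steps at these 4 borders were -0.050, -0.032, -0.0012 and 0.0044, and the direct steps of -0.70, 0.56, -0.50 and 0.53 were all called.

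On chromosome 20 the first 3 bins stood at -0.31 and the next at 0.10, split between MACROD2 (start 13995369) and FLRT3 (start 14322985). On chromosome 15 the step of 0.41 fell between AVEN (start 33858782) and EMC7 (start 34084017), on chromosome 17 the step of 0.40 between SLC16A6 (start 68267026) and WIPI1 (start 68420948), and on chromosome 22 the step of 0.35 between ZMAT5 (start 29730956) and UQCR10 (start 29767369). On chromosome 1 a step of 0.44 fell between PEX19 (start 160276807) and COPA (start 160288594), within the low stretch of the long arm. The lower run went on to 165 Mb, and none of its bins lay above -0.24. On chromosome 4 the values climbed by 0.37 and again by 0.40, the second time between TMEM192 (start 165070608) and KLHL2 (start 165207561). Some boundaries sat near the limit. Of the 28, 4 had a step under 0.35, and those on chromosomes 11 and 12 missed the limit without the first WT library (-0.290 and -0.299) or the third (-0.298 and -0.2996). On chromosome 9 the step across the centromere was 0.52, and on chromosome 3 the step of 0.40 fell between PLCXD2 (start 111674676) and PHLDB2 (start 111732497). The boundary on chromosome 13 stood at -0.285 without the third WT library, as did one on 7p at -0.286. One on chromosome 6 stood at -0.298 without the first WT library, and that on chromosome 12 at -0.290 without the first 1-1 KO library. With the mean over genes the boundary on chromosome 17 stood at 0.291 and the same one on chromosome 6 at -0.290. With at least 10 genes per bin the one on 7p stood at -0.288 and one on chromosome 8 at 0.283. At a minimum of 30 counts the one on 7p stood at -0.258.

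In 1-2 KO 14 borders stepped up (3.36%) and 4 down (0.959%), which made 10 boundaries on 5 chromosomes, 4 of them on chromosomes 4, 10 and 12. The largest lay on 5p between CDH6 (start 31193686) and DROSHA (start 31400494), the nuclease of microRNA processing, where values went from -0.21 to -0.87 with steps of -0.70, -0.61 and -0.65 in the 1-2 KO libraries and -0.0076, 0.011 and -0.034 in WT. On chromosome 12 the values rose from -0.24 to 0.11 between UBA52P7 (start 115592604) and MED13L (start 115957905), a step of 0.35 that became 0.25 after the correction for GC content and length. At the same border 1-1 KO had a step of -0.29, and the direct step was 0.62 (adjusted p = 1.58e-13, limma). At a border of chromosome 5, where the split in 1-2 KO fell between PDE4D and SETP21, the step was 0.50 in 1-2 KO and -0.41 in 1-1 KO, both called, with a direct step of 0.91. At 4 borders both knockouts had a boundary against WT: on chromosome 4 at 30 Mb, on chromosome 5 at 90 Mb, on chromosome 7 at 50 Mb and on chromosome 10 at 15 Mb. The steps were 0.37 and 0.33, 0.44 and 0.35, -0.53 and -0.44, and 0.37 and 0.33 in 1-1 KO and in 1-2 KO. The direct steps of -0.057, -0.16, 0.11 and -0.043 were all under the limit. The calls of 1-2 KO against WT at the first 2 of these borders depended on the settings. The step at 90 Mb of chromosome 5 was 0.222 at a minimum of 30 counts, 0.217 with protein-coding genes alone and 0.271 with the mean over genes, and that at 30 Mb of chromosome 4 was 0.298 with at least 10 genes per bin. The step at 15 Mb of chromosome 10 was 0.256 with protein-coding genes alone. On chromosome 7 the gene split was the same in both, between TNS3 (start 47275154) and PKD1L1 (start 47740202). Between the knockouts 48 borders stepped up (11.5%) and 30 down (7.19%), which made 32 boundaries. Of these, 25 lay on chromosomes other than 5, 6 and 7, which hold 430 of the 527 kept bins. The boundary of 1-2 KO at 55 Mb of chromosome 10 (0.301) was at the limit and missed it without the first or second WT library (0.261 and 0.286) and without the first or the third 1-2 KO library (0.254 and 0.280). That at 15 Mb missed it without the second WT library (0.283) or the second 1-2 KO library (0.275).

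**Figure D4:**
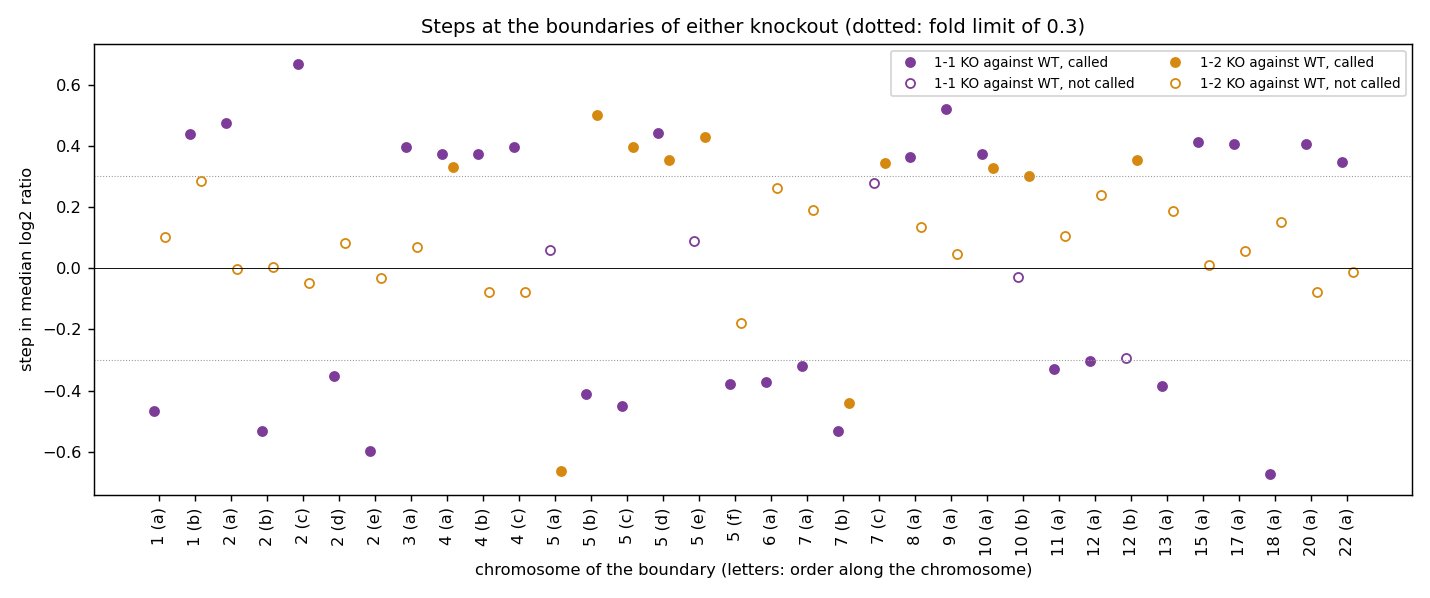
Step in the median log2 ratio (vertical axis) at the 34 borders that are a boundary in at least 1 knockout (horizontal axis, by chromosome), filled where called and open where not, with the limit of 0.3 dotted. Filled points of both lines lie on the same side at 4 borders and on opposite sides at 2 borders of chromosome 5.

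Single bins reached further than runs. The highest bin of 1-1 KO lay at 10 to 15 Mb of chromosome 7 and held 8 genes, all above 0 and all of which rose, among them NDUFA4, a respiratory chain protein, and ETV1. Its libraries stood at 1.10, 0.96 and 1.13 against 0.027, 0.031 and -0.013 in WT (value 1.10, SE 0.0765, adjusted p = 3.05e-08, limma). In the next, at 180 to 185 Mb of chromosome 4, all 15 genes were above 0 and 14 rose (0.85, 0.82 and 0.93 in 1-1 KO, -0.030, -0.016 and -0.0063 in WT). The other 4 of the 6 highest were all on chromosome 2, at 50, 150, 160 and 190 Mb, with values of 0.78, 0.79, 0.74 and 0.79. The lowest bin of 1-1 KO was 4p at 5 to 10 Mb (-0.71, -0.70 and -0.72, 22 of 23 genes below 0), followed by 1q at 155 to 160 Mb (-0.68, 59 of 71), 9p at 10 to 15 Mb (-0.67, 7 of 8), 1q at 150 to 155 Mb (-0.63, 74 of 83), 5q at 80 to 85 Mb (-0.62, 18 of 20) and 10p at 0 to 5 Mb (-0.60, 14 of 14).

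The lowest bins of 1-2 KO were at 35 to 40 Mb of chromosome 5, where all 18 genes fell (-1.04, -0.99 and -0.85 in 1-2 KO, 0.012, 0.028 and -0.034 in WT), and at 0 to 5 Mb of chromosome 10, where all 14 were below 0 and 13 fell (-0.95, -0.85 and -0.89 in 1-2 KO). The chromosome 5 bin holds LIFR, OSMR and PRLR, receptors of the cytokine family, and NIPBL, which loads cohesin. In the chromosome 10 bin the direct difference between the knockouts was -0.016 (adjusted p = 0.0777, limma), although the values against WT were -0.60 and -0.91: the direct value is a median of its own and need not be the difference of the other two. The 3 highest bins were small. At 75 to 80 Mb of chromosome 8 (0.66) 8 of 11 genes were above 0, at 90 to 95 Mb of chromosome 13 (0.60) 3 of 5, and at the end of chromosome 14 (0.52) 9 of 12. The next 3 were larger and lay on chromosome 5. The bins from 145, 140 and 135 Mb held 24, 57 and 30 genes and had values of 0.46, 0.36 and 0.35. The bin on chromosome 13 is at the edge of the rule: the 13 kept bins with exactly 5 genes had values from -0.32 to 0.60 in 1-2 KO and from -0.54 to 0.60 in 1-1 KO, and the 10 bins with 4 genes, which were not kept, from -0.38 to 0.42 and from -0.98 to 0.64.

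The bin with the deleted genes, at 140 to 145 Mb of chromosome 5, was higher in both knockouts. It stood at 0.32, 0.36 and 0.32 in 1-1 KO, 0.34, 0.34 and 0.37 in 1-2 KO and -0.0063, 0.0034 and 0.024 in WT, with values of 0.35 and 0.36 (SE 0.0211, adjusted p = 9.96e-09 and 1.46e-08, limma). The direct difference was -0.049 (SE 0.0231, adjusted p = 0.22). Of its 57 genes 46 were above 0 in 1-1 KO and 49 in 1-2 KO. In this bin 19 of the 57 genes are clustered protocadherins, 9 of the beta, 9 of the gamma and 1 of the alpha cluster, cell-adhesion genes that share sequence and whose single counts are uncertain. The neighbouring bins differed between the lines: at 135 to 140 Mb 1-1 KO stood at -0.12 and 1-2 KO at 0.35, and at 145 to 150 Mb at -0.20 and 0.46, with direct adjusted p of 7.09e-09 and 3.70e-10 in limma.

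Summing the counts of all genes of a bin, those under the count minimum included, and testing the sums in edgeR gave 107 higher and 158 lower bins in 1-1 KO, together 50.3% of the bins, and 37 higher and 133 lower in 1-2 KO, together 32.3%, at an adjusted p under 0.05 and a log2 fold change of at least 0.2 in size. With scaling by totals alone the shares of higher and lower bins were 25.6% and 23.7% in 1-1 KO and 12.9% and 19.5% in 1-2 KO, against 20.3% and 7.02% higher here. Of the bins called by their median, 187 of 235 in 1-1 KO (79.6%) and 114 of 142 in 1-2 KO (80.3%) were called in the same direction by their sum, which were 70.6% and 67.1% of the bins called by the sum. Both readouts share their libraries and most of their genes. Over the 527 bins Pearson's r between them was 0.83 and 0.80, given as a description. A single abundant gene could set the sum apart. At 70 to 75 Mb of chromosome 4 the median was -0.0019 in 1-1 KO and -0.0094 in 1-2 KO, whereas the sum rose by 1.79 and 1.31. This bin holds ALB and AFP, which encode albumin and alpha-fetoprotein, plasma proteins of adult and fetal liver. At 85 to 90 Mb of chromosome 12 the median was 0.017 in 1-1 KO and the sum rose by 1.29, with NTS, the neurotensin precursor, as its most abundant gene. In 1 bin of each comparison the 2 readouts were called in opposite directions: at 100 to 105 Mb of chromosome 6 in 1-1 KO, where LIN28B, an RNA-binding repressor of let-7, made up 69.1% of the sum, and at 105 to 110 Mb of chromosome 5 in 1-2 KO, where MAN2A1, a Golgi mannosidase, made up 56.4%.

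**Figure D5:**
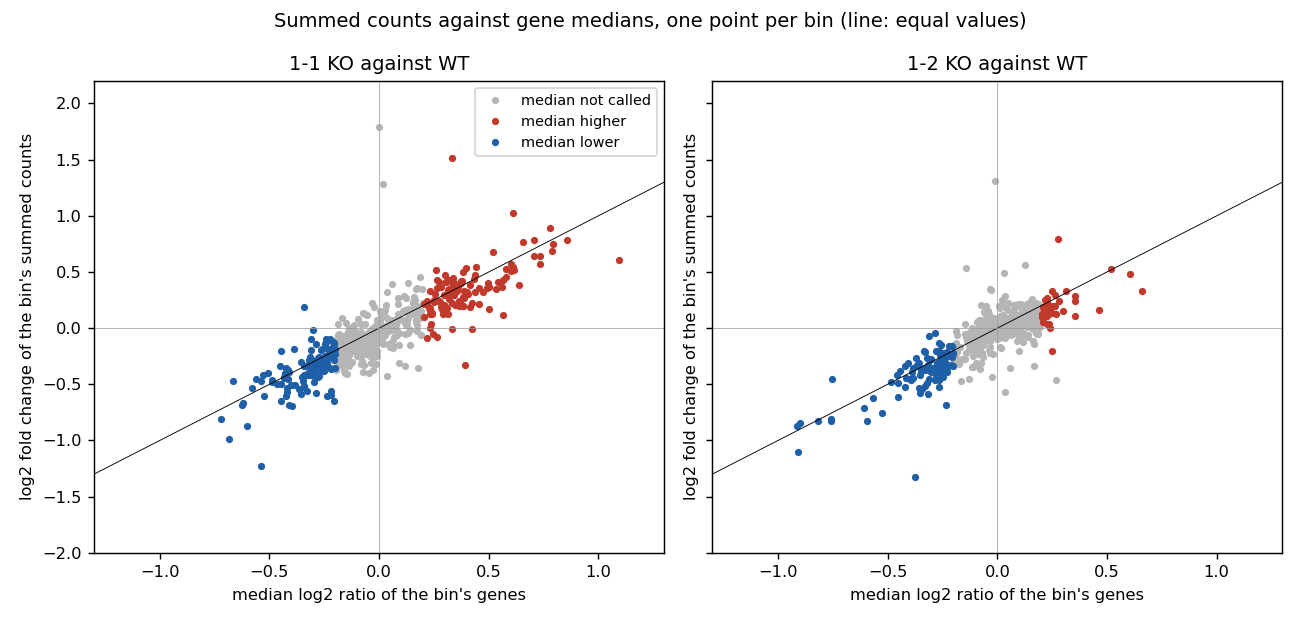
Log2 fold change of the summed counts of a bin (vertical axis) against the median log2 ratio of its genes (horizontal axis) for 527 bins in each knockout, coloured by the call of the median, with a line of equal values. Most points follow the line, and the bin with ALB and AFP stands above it at a median near 0 in both panels.

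Most genes of a run moved with it. Within the higher runs of 1-1 KO 67% of genes rose and 8.52% fell, against 32.8% and 34.2% of all autosomal genes that passed the count minimum. In the lower runs 66% fell and 8.19% rose. In the lower runs of 1-2 KO 63.1% fell and 8.69% rose, against 29.7% and 27.5% of all. These genes made the runs, so the shares are a description. Genes tested in edgeR that were under the count minimum had no part in the rule. In the higher runs of 1-1 KO 238 of 471 such genes rose (50.5%) and 28 fell (5.94%), against 33.2% and 12.2% of all 2617 such genes, and in its lower runs 54 of 310 rose (17.4%) and 74 fell (23.9%). In the lower runs of 1-2 KO 105 of 413 rose (25.4%) and 75 fell (18.2%), against 32.7% and 8.90%. Such genes enter the test through the line in which they are high, and more of them were called higher than lower over the whole genome, so these shares are a description too. Values varied with abundance. Over all autosomal genes that passed, the median ratio was 0.083 in the tercile of lowest mean CPM and -0.065 in the highest in 1-1 KO, and 0.077 and -0.059 in 1-2 KO. On 1q from 145 to 165 Mb the terciles from low to high stood at -0.25, -0.56 and -0.68 in 1-1 KO, and on chromosome 6 from 0 to 65 Mb at -0.29, -0.33 and -0.35 in 1-2 KO. Higher runs mostly had the other order, such as 0.42, 0.24 and 0.089 on 19q from 40 Mb to the end and 0.72, 0.61 and 0.32 on chromosome 2 from 200 to 215 Mb in 1-1 KO, and 0.50, 0.34 and 0.25 in the higher run of 1-2 KO. The most abundant tercile lay nearer to 0 than the least abundant in 13 of 16 higher runs of 1-1 KO, and farther from 0 in 11 of 12 lower runs of each knockout. Genes of the plus and the minus strand had medians of 0.71 and 0.68 on chromosome 2 from 145 to 165 Mb in 1-1 KO and of -0.40 and -0.40 on chromosome 10 from 0 to 35 Mb in 1-2 KO. Over the bins Pearson's r of the value with the GC content of the bin was -0.070 in 1-1 KO and 0.17 in 1-2 KO, and that with the value of the next kept bin was 0.66 and 0.66 over 505 pairs of bins, which share their libraries.

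A list of 59 genes often altered in liver cancer was placed on the bins, of which 58 are autosomal and passed the count minimum. In edgeR 17 of the 59 rose and 22 fell in 1-1 KO, where 32.8% of all autosomal genes that passed rose and 34.2% fell, with a median ratio of -0.023 against -0.011 over all genes. In 1-2 KO 21 rose and 20 fell, where 27.5% and 29.7% of all did (median 0.017 against -0.0051). In 1-1 KO, where 235 of 527 bins were called, 20 of them lay in called bins, of which 17 moved with their bin and 1 against it. In 1-2 KO, where 142 bins were called, 17 did, 12 with and 2 against. Among all genes of runs, 67% in the higher and 66% in the lower runs of 1-1 KO were called with their run. In the lower runs of 1-2 KO 63.1% were. The share over all genes of called bins is not given here. Each gene is part of its bin, so the agreement is partly built in. On 1q MCL1, an anti-apoptotic protein, stood at 402 ± 8.01 CPM in WT, 251 ± 4.45 CPM in 1-1 KO and 318 ± 6.24 CPM in 1-2 KO, and CKS1B, a cell-cycle kinase subunit, at 202 ± 8.46 CPM in WT, 122 ± 4.07 CPM in 1-1 KO and 177 ± 12.8 CPM in 1-2 KO. Both fell in both lines, as did their bin. On 19p KEAP1, the sensor that restrains NRF2, rose in 1-1 KO (log2 fold change 0.56, adjusted p = 2.75e-07), and on 2q NFE2L2, which encodes NRF2, did too (0.50, adjusted p = 3.66e-07). On 5q IL6ST, the shared receptor subunit of the interleukin 6 family, stood at 293 ± 10.8 CPM in WT, 296 ± 0.993 CPM in 1-1 KO and 163 ± 3.52 CPM in 1-2 KO, and fell with its bin in 1-2 KO (log2 fold change -0.85, in 1-1 KO 0.015, adjusted p = 0.721, edgeR). EGFR, the epidermal growth factor receptor on 7p, stood at 251 ± 3 CPM in WT, 398 ± 7.95 CPM in 1-1 KO and 145 ± 7.19 CPM in 1-2 KO, and rose in 1-1 KO and fell in 1-2 KO (direct adjusted p = 7.80e-13, edgeR). Some genes went their own way. AKT2, a growth factor kinase on 19q, fell by 0.096 in 1-1 KO (adjusted p = 0.0404, edgeR) in a bin at 0.30. CDH1, E-cadherin on 16q, fell by 1.48 in 1-2 KO and rose by 0.48 in 1-1 KO in a bin at -0.096 and 0.079. MYC, in a higher bin of 8q in 1-1 KO, stood at -0.029 (adjusted p = 0.693, edgeR).

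Genes that went from at most 3 counts in every library of 1 line to at least 10 in every library of another were scattered over many bins. Against WT, 88 of 16181 autosomal genes expressed in any line appeared and 25 disappeared in 1-1 KO, and 180 appeared and 13 disappeared in 1-2 KO. No bin held more than 4 genes of 1 such class. In 1-1 KO such genes were neighbours among expressed genes in 1 pair each way, ADAMTS5, a matrix protease, with an adjacent noncoding gene on chromosome 21 (59, 51 and 44 counts against 0, 0 and 0 in WT), and the olfactory receptor genes OR12D2 and OR14J1 on 6p, OR12D2 having 2, 1 and 0 counts against 33, 39 and 37. In 1-2 KO 36 of those that appeared lay in 17 groups of neighbours. They included HOXD4 and HOXD8, body-plan transcription factors of 2q (20, 24 and 12 and 12, 13 and 10 counts against 0, 0 and 0 and 0, 0 and 0), TOX with its divergent transcript on 8q (100, 81 and 84 and 32, 23 and 24 counts against 0, 0 and 1 and 0, 0 and 0), and the ephrin receptor gene EPHA7 on 6q (560, 539 and 485 against 1, 1 and 0). The class II antigen-presenting genes HLA-DRB1 and HLA-DRB5, near-identical paralogs, and HLA-DPA1 and HLA-DPB1 also appeared, HLA-DRB1 with 127, 124 and 143 counts in 1-2 KO, 9, 6 and 3 in 1-1 KO and 1, 0 and 2 in WT. They lie in the bin at 30 to 35 Mb of chromosome 6, whose median fell by 0.24 on the log2 scale in 1-2 KO.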

How the data were processed

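Poly(A)-selected RNA from 9 libraries, 3 per line, was prepared with a stranded mRNA kit. The authors deposited raw counts of reads per gene, made by alignment to GRCh38 with STAR and counting with featureCounts. The study names a release of the reference, while the versions of STAR and featureCounts and the strand and multimapping settings of the counting are not given in the sources used here. Gene positions, names and types came from GENCODE 44, in which 60463 of 60664 gene identifiers were found, and the 201 others held 0.0192% of all counts.

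Counts were scaled by TMM in edgeR 4.0.16, and log2 CPM was computed with 0.5 counts added. The log2 ratio of a knockout to WT was the difference between the means of log2 CPM, and the value of a bin or arm was the median over its genes. For tests the same median was taken for each library against the WT mean, or the 1-1 KO mean in the direct comparison, and compared in limma 3.58.1 with 1 fit over all 9 libraries. Summed and single-gene counts were tested with edgeR's quasi-likelihood test on 17207 genes that passed filterByExpr (min.count 10, min.total.count 15). All p-values were adjusted by Benjamini-Hochberg over all bins, arms, borders or genes. Every test is two-sided. The tests of bins and of single genes were also run on simulated counts with known changes, for 1-1 KO against WT alone. The tests of arms, steps and summed counts were not scored in this way.

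An arm needed 20 genes, and arm borders were set from the GRCh38 bands by general knowledge. Named were the 6 highest and 6 lowest bins, all runs, called arms and boundaries, in each run the 3 most abundant genes and the genes of at least 10 CPM with the largest change with and against it, listed liver cancer genes, and neighbours that appeared or disappeared. From these, examples were picked for the text, and genes named for a single bin or its sum were chosen after their values were seen. A few genes that this rule selects are not reported here. The members and lists were chosen with earlier results of these data known. Alternatives were another scaling, count minimum, bin size or offset, gene set, summary, pseudocount, limit, test (DESeq2 1.42.0) or correction for GC content and length, a replicate block, and leaving out each library. Computation used R 4.3.3 and Python 3.11.15.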

Additional observations from a re-analysis of the deposited data

Results flagged for a closer look

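On the short arm of chromosome 12 the knockouts were called in opposite directions against WT, and 1-2 KO stood -0.21 from 1-1 KO (log2 scale, SE 0.0133, adjusted p = 1.43e-08, limma), with all 3 libraries of each line on its own side of WT. On the short arm of chromosome 20 the reverse was measured, with 1-2 KO 0.27 above 1-1 KO (SE 0.0233, adjusted p = 7.73e-07, limma). These arms were picked because the knockouts were called in opposite directions against the same WT libraries. A direct difference was therefore largely built in, and its test gives no separate support. Some calls against WT were not firm. Those of -0.13 for 12p in 1-2 KO, and of -0.11 and 0.12 for 20p in 1-1 KO and in 1-2 KO, lie near the limit of 0.1. They missed it under alternatives given above. With the mean over genes 20p in 1-1 KO was at -0.0020 (adjusted p = 0.947, limma), and 20p in 1-2 KO missed the limit at a minimum of 30 counts (0.092).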

How the results depend on the processing

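Only the 24 extreme bins, all at least 0.35 in size, were recomputed one by one, and each of their 596 values kept its sign and its side of the threshold, which says little of bins near the limit. Of 851 recomputed arm values 26 and of 918 recomputed boundary values 36 kept their direction but missed the limit, and none of them reversed; those that rest on 1 library are given with their values above. Of 1025 recomputed run values 210, in 40 of 41 runs, moved by more than the SD between libraries. None changed sign, and each lay between 0.724 and 1.45 times the reported value. Of 5376 recomputed gene values 118 lost and 63 gained significance.

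Shares of calls moved mainly among the increases of 1-2 KO. Its higher bins made up 4.18% with bins of 10 Mb, 20.9% with the mean over genes, 12.2% over all genes passing filterByExpr and 14.6% with scaling by library size alone, which also gave 12.9% higher sums. Its higher arms made up 7.69% at a minimum of 30 counts, 2.56% after correction for GC content and length, 41% with the mean, 20.5% with filterByExpr, 25.6% with library size alone, and between 7.69% and 17.9% with 1 library left out, 7.69% without the first 1-2 KO library.

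Higher limits of 0.3 for bins, 0.15 for arms and 0.4 for steps gave 12.1% lower bins, 3.6% and 3.36% steps up and down and 14 boundaries in 1-1 KO, 1.71% higher and 10.2% lower bins, 2.56% higher arms, 0.959% steps up and 4 boundaries in 1-2 KO, and 15% and 16.5% bins, 6.71% and 2.88% steps and 16 boundaries directly. Lower limits of 0.1, 0.05 and 0.2 gave 38.7% lower bins, 13.4% and 16.3% steps and 44 boundaries in 1-1 KO, 22.2% higher bins, 25.6% higher arms, 9.35% and 2.64% steps and 22 boundaries in 1-2 KO, and 19.7% and 12.7% steps directly. Without a filter on low counts more genes were tested, and 17% were higher and 15.3% lower in 1-1 KO, 15% and 12.7% in 1-2 KO and 17.3% and 16.5% directly. Beyond the limits and the filter, which act by their construction, the cause of these shifts was not tested.

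Replicate numbers are shared by the lines, but same-numbered libraries did not deviate together: over 9 pairs the correlation of their deviations lay between -0.27 and 0.12, and in 3 of 18 comparisons of a library with another line the own number correlated best. With the number as a block 21.4% of bins were higher in 1-1 KO and 20.1% lower in 1-2 KO, and no count of calls moved by more than 1.5 times. The median of a bin rests on as few as 5 genes, and the effect of depth on such bins was not tested.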
